A study of Mus musculus with 24 samples.

Results

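Single-strand lincRNA probes are array probes for long intergenic non-coding RNAs whose interval was placed on 1 strand of the genome only. Of the 16251 lincRNA probes on the array, 6499 had such an interval, 6167 of these were on autosomes with a coordinate, and 2699 lay within 10 kb, midpoint to midpoint, of a probe from outside the lincRNA design. These 2699 probes, in 1041 intervals, were each paired with the nearest such probe, called the partner here, and the 3468 single-strand probes with their partner beyond 10 kb served for comparison. The label of the set calls the partners coding probes, but by RefSeq biotype the partner was a protein-coding gene for 1275 probes, a non-coding RNA or pseudogene for 572, and could not be matched for 852. The partner lay on the same strand for 1763 probes and on the opposite strand for 936, at a median distance of 2577 bp. At the edge of the 10 kb limit, the last probe inside was paired with Srrm1 at 10000 bp (r = -0.18) and the first outside with Rxra at 10009.5 bp (r = -0.03). Because 2534 of the probes shared their partner probe with another one, and 836 of the intervals held more than 1 probe, pairs are not independent of each other.

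RNA came from mammary tissue of female mice of the inbred strain BALB/c and the wild-derived strain SPRET/EiJ, a different mouse species. Animals received whole-body X-rays at 8 to 9 weeks of age, a single dose of 10 cGy (low-dose ionizing radiation, LDIR), or a sham treatment. For BALB/c, irradiated and control glands were taken 2, 4 and 8 weeks later, and for SPRET/EiJ 4 weeks later, which gave 8 groups of 3 arrays. The methods call the 3 samples of a group biological replicates. In whole tissue, fewer cells of a type and less RNA per cell cannot be told apart.

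The share of the array's probes with signal well above background lay between 57.1% and 72.6%. The negative-control signal was 4.86 on BALB/c sham 8 weeks A and 3.77 on SPRET/EiJ LDIR C, and at most 2.98 on the other arrays. All white adipocyte (10 of 10), luminal (15 of 15), basal (7 of 7) and endothelial (5 of 5) markers on the array were above background on at least 20 arrays. The mean level of the lymphocyte list ranged from -1.99 to 3.94 and that of the skeletal muscle list from -3.80 to 4.49 over the arrays (log2 relative to the array's 75th percentile), a wide spread between samples. Of these lists 8 of 9 lymphocyte and 7 of 9 muscle markers were above background on at least 20 arrays.

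LincRNAs are transcribed by RNA polymerase II, are often spliced and polyadenylated, and do not encode a long protein. A lincRNA annotated next to a gene on the same strand can be a separate transcript, an unannotated extension of that gene or part of the same transcript. One on the opposite strand can arise from a shared bidirectional promoter or as an antisense RNA. A hybridization probe detects the stretch it covers and cannot tell these cases apart.

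The probes below show what the pairs compare. All are written 5′ to 3′ as on the array, with mm9 coordinates, and capitals mark bases that the partner probe covers too. For Mir17hg, the host transcript of the miR-17-92 microRNA cluster, 1 lincRNA probe is letter for letter the partner probe (chr14:115445828-115445887, plus strand) and another lies upstream of it without overlap (chr14:115445649-115445708).
Mir17hg, same sequence: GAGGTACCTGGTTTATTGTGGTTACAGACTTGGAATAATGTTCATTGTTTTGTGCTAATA
Mir17hg, no overlap: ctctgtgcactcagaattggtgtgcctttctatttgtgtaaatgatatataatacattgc

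Tug1, a conserved nuclear lncRNA (chr11:3542141-3542200 and chr11:3542201-3542260, minus strand), and 2310047K21Rik (chr2:104658551-104658610 and chr2:104658684-104658743, plus strand) show partial overlap of 58, 2 and 10 bases, and none.
Tug1, 58 bases shared: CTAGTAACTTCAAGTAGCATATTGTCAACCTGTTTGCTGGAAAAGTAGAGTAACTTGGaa
Tug1, 2 bases shared: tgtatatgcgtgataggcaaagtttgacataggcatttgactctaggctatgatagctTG
2310047K21Rik, 10 bases shared: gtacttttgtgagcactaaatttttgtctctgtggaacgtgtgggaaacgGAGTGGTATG
2310047K21Rik, no overlap: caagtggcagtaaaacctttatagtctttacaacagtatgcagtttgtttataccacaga

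On the opposite strand no sequence is shared. The probes shown are those beside Btg1 (chr10:96084331-96084390, minus strand) and Pou3f1 (chr4:124334083-124334142, minus strand), which carry results described further on.
Btg1, opposite strand: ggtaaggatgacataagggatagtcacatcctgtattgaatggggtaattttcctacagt
Pou3f1, opposite strand: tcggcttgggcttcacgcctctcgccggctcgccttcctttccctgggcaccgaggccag

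In all, 185 pairs had overlapping probes, 163 of them on the same strand, and 56 had the same sequence. The hexamer AATAAA, the usual polyadenylation signal, was searched as written in the probe and was present in 8.38% of probes with a same-strand partner within 1 kb, in 5.45% with an opposite-strand partner within 1 kb, and in 3.92% of all lincRNA probes. The median GC content was 45% in the paired probes and 45% in all lincRNA probes. At least 20 of the 24 arrays detected 1319 of the 2699 probes (48.9%), against 42.8% of the single-strand probes farther from a partner, and 408 were above background on no array.

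To ask whether the lincRNAs varied together with their neighbours, the group mean was removed from each probe and Pearson's r was taken over the 24 arrays. Pairs on the same strand within 1 kb had the highest median r, 0.493 over 656 pairs, with the middle 50% of pairs between 0.248 and 0.769. The median was 0.236 over 586 same-strand pairs at 1 to 5 kb and 0.180 over 521 at 5 to 10 kb. Opposite-strand pairs had a median of 0.0854 over 936 pairs. All 128152 other pairings of these lincRNA and partner probes on the same chromosome, taken as the reference, had a median of 0.0842 with 95% of values between -0.56 and 0.68. Where both probes were above background on at least 20 arrays, the same-strand medians were 0.75, 0.221 and 0.240 over the 3 distances, and the opposite-strand median was 0.136 beside 0.046 for the other pairings. Over the 8 group means in place of the arrays, the same-strand medians were 0.575, 0.121 and 0.171, the opposite-strand median 0.132 and that of the other pairings 0.0687. Same-strand pairs within 1 kb were thus highest on each of these scales, while the order of 1 to 5 kb and 5 to 10 kb, and the standing of the opposite strand, varied with them. Over the 24 arrays, single-strand probes with a same-strand partner farther away had medians of 0.170 over 1737 pairs at 10 to 100 kb and 0.218 over 292 beyond 100 kb. The median of 0.180 at 5 to 10 kb lay between these.

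**Figure D1:**
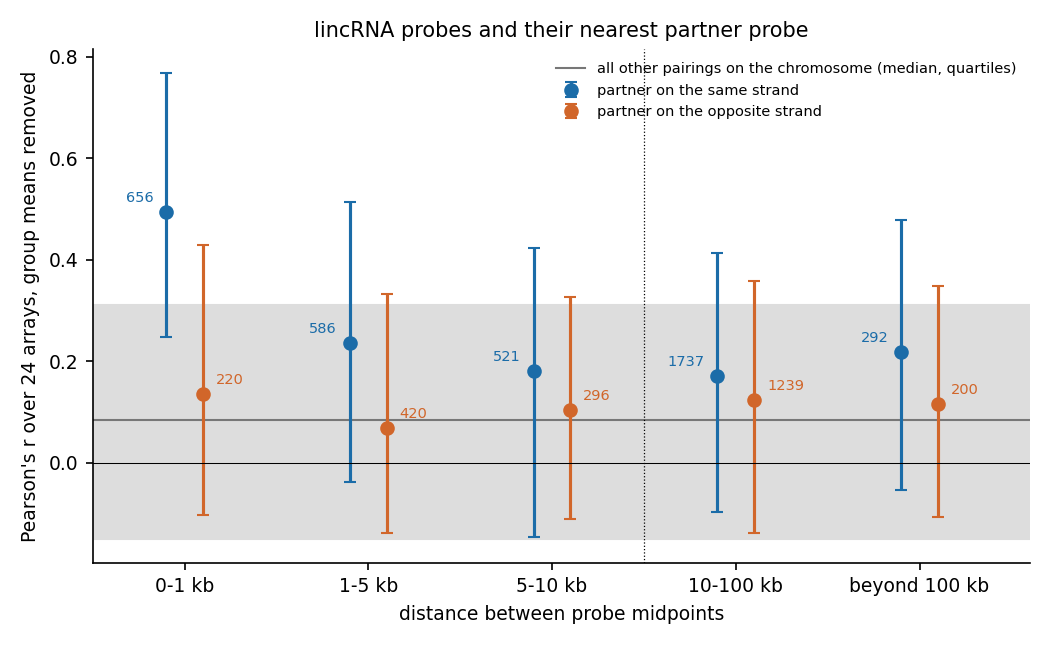
Median Pearson's r (points) and quartiles (bars) of lincRNA and partner probes over 24 arrays after removal of group means, by distance and strand, with the number of pairs beside each point; pairs right of the dotted line lie beyond 10 kb. The same-strand median within 1 kb, 0.493, lay above the quartiles of all other pairings (grey). The same-strand medians of 0.236 at 1 to 5 kb and 0.180 at 5 to 10 kb lay inside them. So did the opposite-strand medians, between 0.0686 and 0.135 within 10 kb. Beyond 10 kb the same-strand medians were 0.170 and 0.218.

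By an exact permutation test within groups with Benjamini-Hochberg adjustment over 15546 lincRNA probes, 253 pairs passed an adjusted p of 0.05 with positive r and 6 with negative r. The positive share was 9.37% of the pairs, where 4.72% of all lincRNA probes with a partner passed, and the negative share of all lincRNA probes was 0.18%. Of lincRNA probes with the partner beyond 10 kb, 2.39% passed with positive r. The 253 pairs lay in 153 intervals. Of their lincRNA probes 70 had an absolute r above 0.7 with the white adipocyte list, 54 with the lymphocyte list and 4 with the skeletal muscle list (242, 247 and 7 of all 2699), and the part of these cell types in the pairs was not tested. On the same strand 231 of 1763 passed with positive r, and on the opposite strand 22 of 936.

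Some pairs had overlapping probes and so shared target sequence. The 163 overlapping same-strand pairs had a median r of 0.708, and 63 passed. Without overlap, the 493 same-strand pairs within 1 kb still had a median of 0.45 and 91 of them passed. The 22 overlapping opposite-strand pairs had a median of -0.01, with 1 positive and 3 negative. Where both probes were above background on at least 20 arrays, the same-strand median within 1 kb was 0.75, and 127 of 269 passed. For scale, 2 lincRNA probes of the same interval within 1 kb had a median r of 0.405, or 0.683 when both were above background. For 2 probes of the same partner gene within 1 kb it was 0.755, or 0.839 when both were above background.

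Pairs also differed by position relative to the interval, which was not examined apart from distance and probe overlap. When the partner's midpoint lay inside the lincRNA interval on the same strand, the median r was 0.445 (175 of 808 passed), and outside it was 0.185 (56 of 955 passed). For protein-coding partners the medians were 0.622 inside and 0.128 outside. LincRNA intervals annotated on both strands, which are not in this set, gave a like median of 0.483 over 589 same-strand pairs within 1 kb.

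Of the 8 same-strand pairs named for the highest r, 7 had overlapping probes and Mrln did not. Acad12, of the acyl-CoA dehydrogenase family of fatty acid oxidation, had r = 0.996 (Spearman's rho = 0.983, exact permutation test, adjusted p = 0.000597) with a probe that overlaps the partner probe. All 3 lincRNA probes of its interval passed (r at least 0.983). The Acad12 lincRNA followed the white adipocyte list at r = 0.989, and the part of adipocyte content in this pair was not tested. In BALB/c sham arrays at 4 weeks its level was 1.25, 1.51 and 1.12, and in SPRET/EiJ sham arrays 4.49 ± 0.44 (SD, n = 3), the lowest being 4.20. All SPRET/EiJ values were above all BALB/c values.

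Mrln encodes myoregulin, a micropeptide that inhibits the sarcoplasmic calcium pump of skeletal muscle. Its lincRNA probe lies 72 bases from the partner probe without overlap and had r = 0.993 (rho = 0.973, adjusted p = 0.000402). Its levels ran from -5.72 over a median of -4.36 to -0.14. The high values were -0.14 in BALB/c LDIR 8 weeks C, -0.83 in BALB/c sham 2 weeks C and -1.92 in BALB/c LDIR 2 weeks A, single arrays of 3 different groups. The partner read 0.30, -0.32 and -1.54 on these arrays. The skeletal muscle list had r = 0.898 with this lincRNA probe, and its part in the pair was not tested. Of the 3 lincRNA probes of this interval 2 passed, and the lowest had r = 0.368.

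For Mir17hg, r was 0.995 with the identical probe and 0.985 with the probe 179 bases away (adjusted p = 0.000402 and 0.000597), and all 3 probes passed. Kifc1, a mitotic kinesin, had r = 0.980. Ifi207, an interferon-inducible gene of the p200 family, and 5730419F03Rik had r = 0.993 and 0.990 at probes of the partner's own sequence, and Gm4924 had 0.984 at an overlapping probe. Of the 3 lincRNA probes in the 5730419F03Rik interval only 1 passed, and the lowest had r = 0.293. Borcs8, a subunit of the complex that positions lysosomes, had r = 0.984 over 23 arrays, but r = 0.466 with the authors' values and 0.47 with outlier spots kept. In each of these pairs r stayed above 0.95 within the 18 BALB/c arrays, within the 6 SPRET/EiJ arrays, and without the 2 arrays farthest from the lincRNA's median. The white adipocyte list had r = -0.857 with the Mir17hg lincRNA, -0.775 with that of Kifc1 and 0.761 with that of Gm4924. For Ifi207 the strongest list was nerve and Schwann cells (0.773), for Borcs8 luminal (-0.680) and for 5730419F03Rik erythrocyte (-0.546). The part of these cell types in the pairs was not tested.

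Further pairs, chosen after their values were seen, show the same-strand pattern in non-overlapping probes and in well-known non-coding genes. Without overlap, r was 0.975 for Qser1, 0.970 for the pseudogene Mfsd4b3-ps, 0.967 for Btbd19 and 0.959 for 2310047K21Rik. The 6 same-strand probes of Tug1 had r between 0.806 and 0.970 and all passed, while 3 dim probes on its opposite strand had r between -0.05 and 0.198. The 3 probes beside Norad, a cytoplasmic lncRNA that binds PUMILIO proteins, had r between 0.917 and 0.946 and all passed. Each of the 3 also had r between -0.88 and -0.85 with the lymphocyte list, whose part was not tested.

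Other known non-coding partners gave few or no passing pairs. At Pvt1, the lncRNA next to Myc, the probe of the partner's own sequence had r = 0.781 (adjusted p = 0.0231, exact permutation test), while the 8 others had r between 0.110 and 0.470 and did not pass. At Neat1, the scaffold RNA of paraspeckles, 3 same-strand probes had r between 0.357 and 0.424 and 3 opposite-strand probes between -0.15 and 0.138, and none passed. Beside Terc, the RNA template of telomerase, 1 of 7 probes passed (r = 0.681).

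Among opposite-strand pairs with a named gene, Btg1, an antiproliferative gene high in lymphocytes, had the highest r among those named, 0.841 (rho = 0.817, exact permutation test, adjusted p = 0.0358). The lincRNA level was -3.03, -1.73 and -3.56 in BALB/c LDIR at 8 weeks, where the partner read 1.14, 2.63 and 1.18. Array B was the highest of its group at both probes. Of 5 lincRNA probes of this interval 2 passed, and the lowest had r = -0.08. The lymphocyte list had r = 0.756 with this lincRNA, and its part was not tested.

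The other named opposite-strand pairs had lower r. Cwc22, a splicing factor, had r = 0.800 with overlapping probes. Pou3f1, a POU-domain transcription factor, had r = 0.763 at 3609 bp. Rcor3, a corepressor of the CoREST family, had r = 0.711 and Fignl2 had 0.674 (exact permutation test, adjusted p = 0.0358). For Pou3f1, Rcor3 and Fignl2 only 1 of 3 lincRNA probes of the interval passed, the lowest r being 0.487, 0.494 and 0.238. Of these opposite-strand pairs, Rcor3 kept an adjusted p below 0.05 under every alternative run, each array left out included. Btg1, Cwc22, Pou3f1 and Fignl2 lost it with slide means removed, at r between 0.678 and 0.842. Without the 2 arrays farthest from the lincRNA's median, r was 0.723 for Btg1, 0.632 for Cwc22, 0.668 for Pou3f1, 0.841 for Rcor3 and 0.561 for Fignl2. Within the 18 BALB/c arrays r was 0.601 for Cwc22, and within the 6 SPRET/EiJ arrays 0.969. For Btg1 these were 0.934 and 0.677. The strongest negative pair was 1190007I07Rik (r = -0.823, rho = -0.764, exact permutation test, adjusted p = 0.0198), whose probes overlap on opposite strands, and its lincRNA had r = 0.856 with the lymphocyte list. Of 3 lincRNA probes of its interval 1 passed, and the weakest had r = -0.204.

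**Figure D2:**
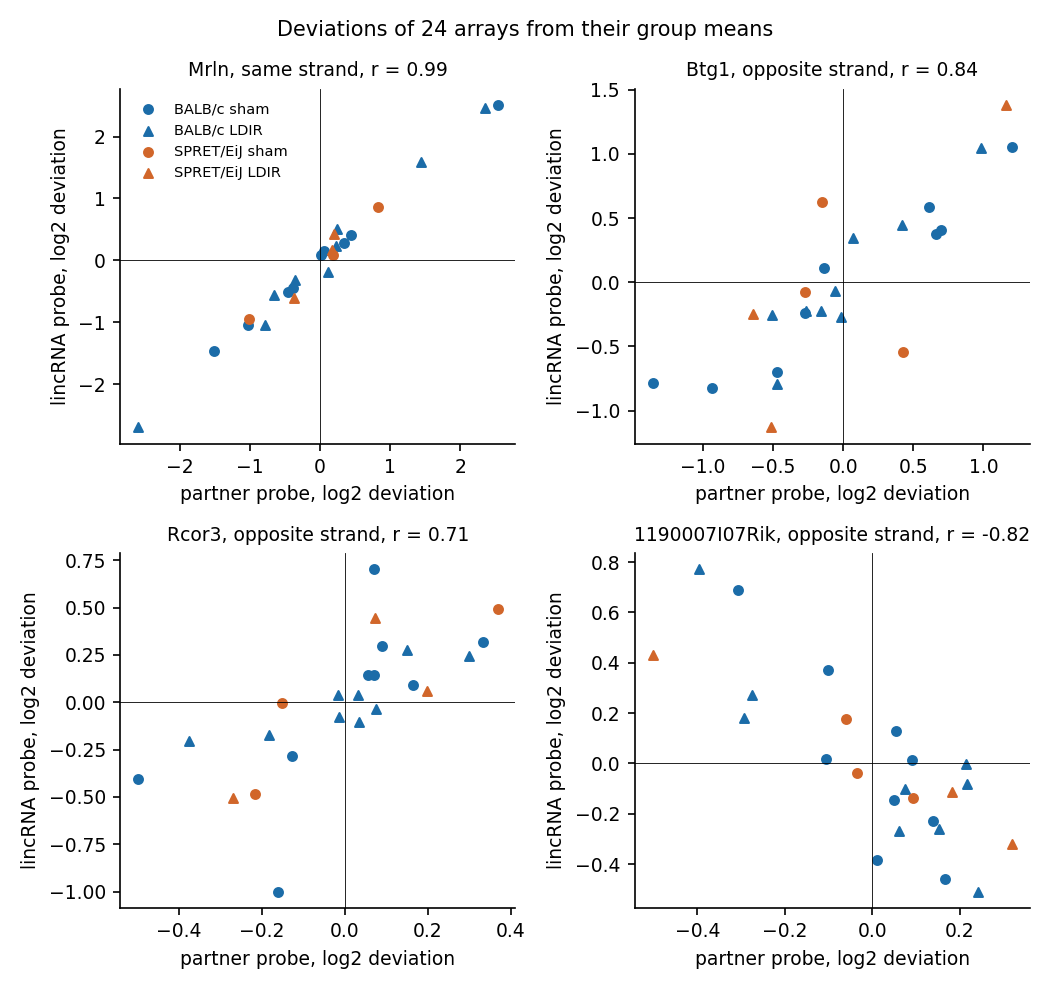
Log2 deviation of each of 24 arrays from its group mean at the lincRNA probe (vertical axis) against the partner probe (horizontal axis) for 4 loci; colour gives the strain and shape the treatment. The Mrln points lie along a line over a wide range set by single arrays, Btg1 and Rcor3 scatter more widely, and 1190007I07Rik runs downward.

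LincRNAs near developmental transcription factors were looked at as a list, since lincRNAs are often annotated beside such genes. It held 30 lincRNA probes in 13 intervals beside 11 genes. The median r was 0.20, where all 2699 pairs had 0.240. The 3 probes beside Hoxb4 had r between 0.240 and 0.338 and the 4 of 6 beside Nkx1-1 that were above background at both probes between 0.034 and 0.455. Of 3 probes in the interval beside Hoxb5, the 2 above background at both probes had r of -0.20 and -0.19. The highest r of these 3 was 0.159. Of 3 probes on the opposite strand of Zfhx2, the 2 above background at both probes had -0.19 and 0.305. The median was 0.0966 over 15 same-strand probes and 0.256 over 15 opposite-strand ones. None of the marker genes on the 11 cell-type lists was a partner.

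Between unirradiated strains at 4 weeks, 272 of the 2699 lincRNA probes passed p of 0.001 and 1.5-fold in limma, 174 higher in BALB/c (5.43% of all probes were) and 98 higher in SPRET/EiJ (3.42% of all probes were). Together they made up 10.08% of the set, beside 8.85% of all probes, and 7.44% of single-strand probes farther from a partner. With limma's adjusted p below 0.05, 520 probes (19.3%) passed, against 18.7% of all probes. Same-strand probes within 1 kb had 88 of 656 past the thresholds. For 83 probes the partner passed too, 67 of them in the same direction, and among same-strand pairs within 1 kb it was 46 with 45 in the same direction. Farther single-strand probes had 41 such pairs of 258, 34 in the same direction. The count of 83 was 46 without BALB/c sham A and 52 without BALB/c sham B. All BALB/c sham arrays of this comparison lay on other slides than the SPRET/EiJ arrays, and with the slide modelled as a block over the 24 arrays 90 of the lincRNA probes passed (3.33%, beside 2.63% of all probes). The probes were designed on the reference mouse, and how far mismatches in SPRET/EiJ contribute was not tested.

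**Figure D3:**
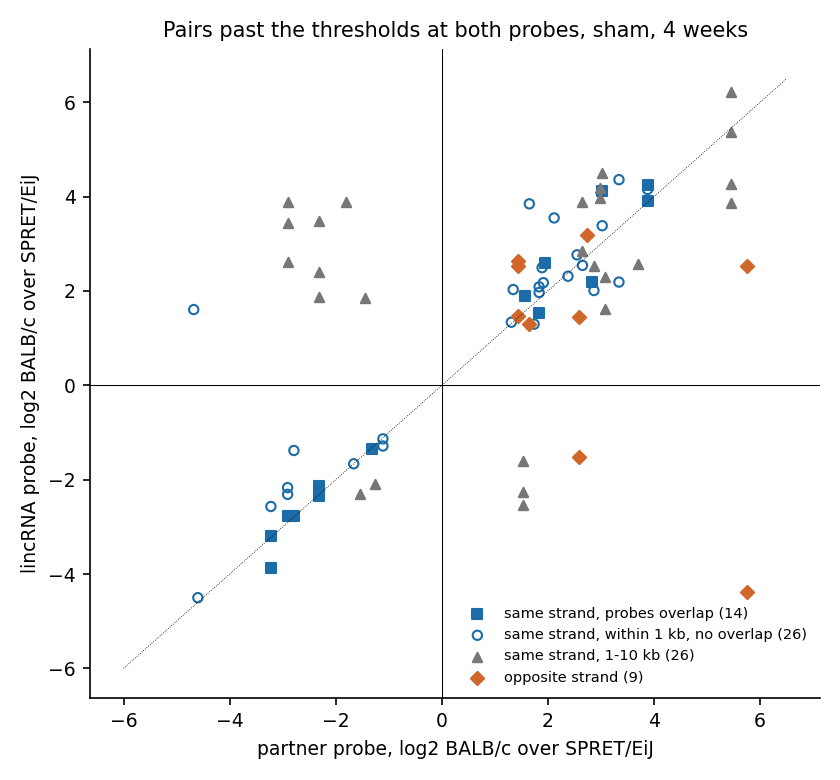
Log2 difference (BALB/c minus SPRET/EiJ, sham, 4 weeks, 3 arrays each) at the lincRNA probe (vertical axis) and its partner probe (horizontal axis), for the 75 pairs past the thresholds at both probes outside 1 chromosome that is left out; the dotted line marks equal differences. Of 26 same-strand pairs within 1 kb without overlap, 25 fell in the quadrants of equal sign, as did all 14 pairs with overlapping probes.

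Large strain differences, with 1 chromosome left out, followed the partner at some loci and not at others. A lincRNA probe 3664 bp from Zfp982, a zinc-finger gene, read -1.71, -1.62 and -1.27 in BALB/c and -7.77, -7.69 and -7.81 in SPRET/EiJ, where no array detected it above background. The BALB/c level was at least 16.2-fold higher (limma, adjusted p = 3.66e-05), the brighter mean being set against the lowest signal well above background on each SPRET/EiJ array. The 3 other lincRNA probes of this locus that passed were at least 3.79-fold to 10.6-fold brighter in BALB/c, with no SPRET/EiJ array above background. The partner was above background on 3 BALB/c arrays and on 1 of 3 SPRET/EiJ arrays, and read -0.03, -0.02 and 0.26 against -5.05, -5.35 and -5.74.

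Isoc2a, of the isochorismatase family, went the other way. Its lincRNA probe, 301 bp away, read -0.69, -1.39 and -1.14 in BALB/c and 3.41, 3.35 and 3.53 in SPRET/EiJ. The groups did not overlap, and the log2 difference was -4.50 ± 0.22 (SE, adjusted p = 0.000139) beside -4.60 ± 0.22 at the partner. The 3 probes of Acad12 were 2.57 to 3.87 lower in BALB/c, beside -3.22 at its partner.

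At other loci the 2 probes differed. A lincRNA probe on chr15:60997078-60997137 (plus strand), 718 bp from an unnamed partner, was at least 14.9-fold brighter in BALB/c (limma, adjusted p = 4.72e-05), while the partner was above background on no array of either group. A probe antisense to Oip5os1, the lncRNA also called Cyrano, read -3.50, -6.47 and -3.66 in BALB/c, where 2 of 3 arrays were above background, and 0.20, 1.20 and 0.53 in SPRET/EiJ, a log2 difference of -5.18 ± 0.82 (adjusted p = 0.00787) beside -0.57 ± 0.44 (adjusted p = 0.443) at the partner. The 3 Neat1 probes on its own strand were 1.61 to 2.54 lower in BALB/c although the partner was 1.53 higher, a choice made after the values were seen. Katnal1, a microtubule-severing subunit, and the intervals beside Borcs8 and A830082N09Rik also had probes of opposite sign to the partner, and in both of the latter the probes nearest the partner followed it.

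After LDIR, no lincRNA probe of the set passed limma's adjusted p of 0.05 in any of the 4 comparisons, nor did any probe on the array (0.0%). At the unadjusted p of 0.05 the counts in BALB/c were 184 at 2 weeks, 176 at 4 weeks and 75 at 8 weeks, and 87 in SPRET/EiJ. These were 6.82%, 6.52%, 2.78% and 3.22% of the lincRNA probes, beside 5.01%, 6.09%, 1.86% and 2.21% of all probes. Adding the 1.5-fold limit left 130 at 2 weeks (3.13% of all probes passed), 136 at 4 weeks (4.78% of all probes), 74 at 8 weeks (1.8% of all probes) and 86 in SPRET/EiJ (2.2% of all probes). The shares of the lincRNA probes were 4.82%, 5.04%, 2.74% and 3.19%, near those of single-strand probes farther from a partner, 4.27%, 5.82%, 2.68% and 2.8%. The methods' t-test gave 69, 71 and 46 in BALB/c and 58 in SPRET/EiJ, and none after Benjamini-Hochberg adjustment. Those were 2.56%, 2.63%, 1.70% and 2.15% of the lincRNA probes, beside 1.69%, 2.45%, 1.06% and 1.35% of all probes.

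**Figure D4:**
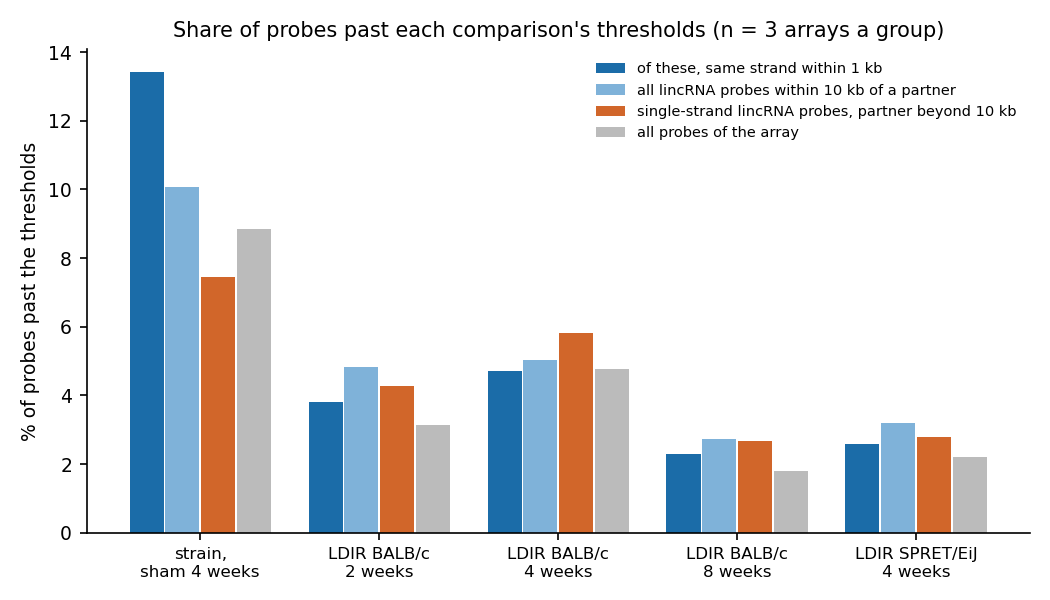
Share of probes past the thresholds of each comparison (p of 0.001 for strain, 0.05 for LDIR, and 1.5-fold) among same-strand lincRNA probes within 1 kb of a partner, all lincRNA probes within 10 kb, single-strand lincRNA probes farther from a partner, and all probes of the array. In the strain comparison the shares were 13.4%, 10.08%, 7.44% and 8.85%, and after LDIR all bars stayed below 6%.

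The direction of these LDIR differences moved with the scaling. At 2 weeks 92 were higher and 38 lower after LDIR (2.25% and 0.876% of all probes), and 45 and 41 after quantile normalization. At 4 weeks the split was 91 and 45 (3.37% and 1.42% of all probes), and 72 and 79 after quantile normalization. At 8 weeks it was 4 and 70 (0.167% and 1.64% of all probes), and 36 and 35, with a median log2 difference of -0.25 over the lincRNA probes and -0.14 over all probes. In SPRET/EiJ it was 58 and 28 (1.6% and 0.598% of all probes), and 28 and 46. For strain, quantile normalization gave 149 and 108. Many of the probes were dim: of the 130 at 2 weeks 45 were above background on no array, as were 29, 27 and 44 in the others. With only probes above background on at least 3 of 6 arrays, 65, 90, 35 and 22 passed. At 4 weeks, 2 of the 3 sham arrays lay on another slide than the LDIR arrays, and 39 probes passed with the slide modelled as a block over the 24 arrays (1.44%, beside 1.20% of all probes), 1 of them with an adjusted p below 0.05. At 8 weeks, LDIR B and C lay on another slide than LDIR A and the sham arrays. With the slide as a block 96 probes passed there (3.56%, beside 3.00% of all probes).

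The partner passed the same thresholds in the same comparison for 8 probes at 2 weeks (6 in the same direction), 10 at 4 weeks (9), 1 at 8 weeks (1) and 2 in SPRET/EiJ (1). Among the 3468 single-strand probes farther from a partner these counts were 1 (1), 10 (9), 2 (2) and 3 (3). As a share of the lincRNA probes past the thresholds, those with the partner past them in the same direction were 4.62%, 6.62%, 1.35% and 1.16% within 10 kb. Among the farther single-strand probes the shares were 0.676%, 4.46%, 2.15% and 3.09%. The share near a partner was thus the higher one at 2 and 4 weeks and the lower one in the other comparisons. Of the 10 at 4 weeks within 10 kb, 8 were same-strand pairs within 1 kb, all in the same direction, and 6 of these had no probe overlap. At 2 weeks there were 0 such pairs within 1 kb. For the probes within 10 kb, the following pairs stood out. At 2 weeks 4 of the 8 lay beside Hectd4, a HECT-domain ubiquitin ligase gene. Its lincRNA probe 2509 bp upstream read -4.10, -4.16 and -4.00 in LDIR and -5.42, -5.70 and -5.29 in sham arrays, 2 of which were above background, so the groups did not overlap. The log2 difference was 1.39 ± 0.16 (limma, adjusted p = 0.488), beside 0.77 ± 0.24 (adjusted p = 0.894) at the partner. The other 3 probes were 0.65, 0.86 and 1.33 higher. In SPRET/EiJ the same probe was 0.72 ± 0.26 higher (limma, adjusted p = 0.972), and the partner 0.61 ± 0.37.

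The other probes named in each LDIR comparison were those with the largest differences among probes past the thresholds, above background on all 3 arrays of the brighter group and without overlap between groups, up to 2 in each direction and with 1 chromosome left out. The partner passed the thresholds at none of them. At 2 weeks a probe 7237 bp from an unnamed partner was at least 1.39-fold higher after LDIR (limma, adjusted p = 0.488), with 0.36 ± 0.25 (log2 difference, SE) at the partner. A probe opposite to 2310034G01Rik, above background on 2 of 3 LDIR arrays, differed by -1.20 ± 0.23 (limma, adjusted p = 0.79), with 0.11 ± 0.19 at the partner. A probe beside Qser1, above background on all 6 arrays, was lower by -0.74 ± 0.19, with -0.31 ± 0.17 at the partner.

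At 4 weeks a probe 160 bp from an unnamed partner was at least 1.39-fold higher after LDIR (limma, adjusted p = 0.699), with 0.58 ± 0.19 at the partner. A probe beside AV450803, above background on 2 of 3 sham arrays, differed by 1.5 ± 0.53, and its partner was above background on no array. A probe opposite to Myoz1, a sarcomere protein of skeletal muscle, read -5.06, -5.54 and -5.96 after LDIR, where 1 of 3 arrays was above background, and -4.40, -3.27 and -4.29 in sham arrays (limma, adjusted p = 0.699), with -0.81 ± 0.79 at the partner. A probe 120 bp from another unnamed partner, above background on 2 of 3 LDIR arrays, differed by -1.35 ± 0.41, and its partner was above background on no array.

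At 8 weeks a probe 168 bp upstream of 1700025H01Rik read -6.22, -7.42 and -6.34 after LDIR, with no array above background, and -3.09, -5.66 and -3.18 in sham arrays. It was at least 3.88-fold lower after LDIR (limma, adjusted p = 1), and its partner was above background on 1 array, sham A, the one with the highest negative-control signal. A probe 114 bp from an unnamed partner was at least 1.46-fold lower, and its partner was above background on no array. In the other direction, a probe opposite to Zfp955a, above background on 2 of 3 sham arrays, differed by 1.37 ± 0.38, with -0.11 ± 0.23 at the partner, and one opposite to 1110002J07Rik by 1.1 ± 0.37, with -0.06 ± 0.24.

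In SPRET/EiJ a probe 9971 bp from Npas4, an activity-dependent neuronal transcription factor, was at least 2.03-fold higher (limma, adjusted p = 0.972), and the partner differed by 0.62 ± 0.44. A probe 3248 bp from an unnamed partner, above background on 1 of 3 LDIR arrays, was lower after LDIR, with 0.12 ± 0.31 at the partner. A probe beside Ttll7, a tubulin-modifying enzyme of the tubulin tyrosine ligase-like family, was above background on 2 of 3 LDIR arrays and differed by -1.02 ± 0.27, with -0.05 ± 0.28 at the partner.

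LDIR effects were also compared between times and strains by interaction terms in limma. None passed the adjusted p of 0.05 in any of the 4 contrasts, and between 123 and 156 of the lincRNA probes had an unadjusted p below 0.05. These were 4.56% to 5.78% of the set, beside 3.08% to 4.20% of all probes.

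The dependence of r on strand and distance was recomputed under other treatments of the values. The same-strand median within 1 kb was between 0.360 and 0.788, and above both the opposite-strand median and that of all other pairings under each setting. Background correction by normexp raised every median, that of all other pairings included, from 0.0842 to 0.322.

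**Figure D5:**
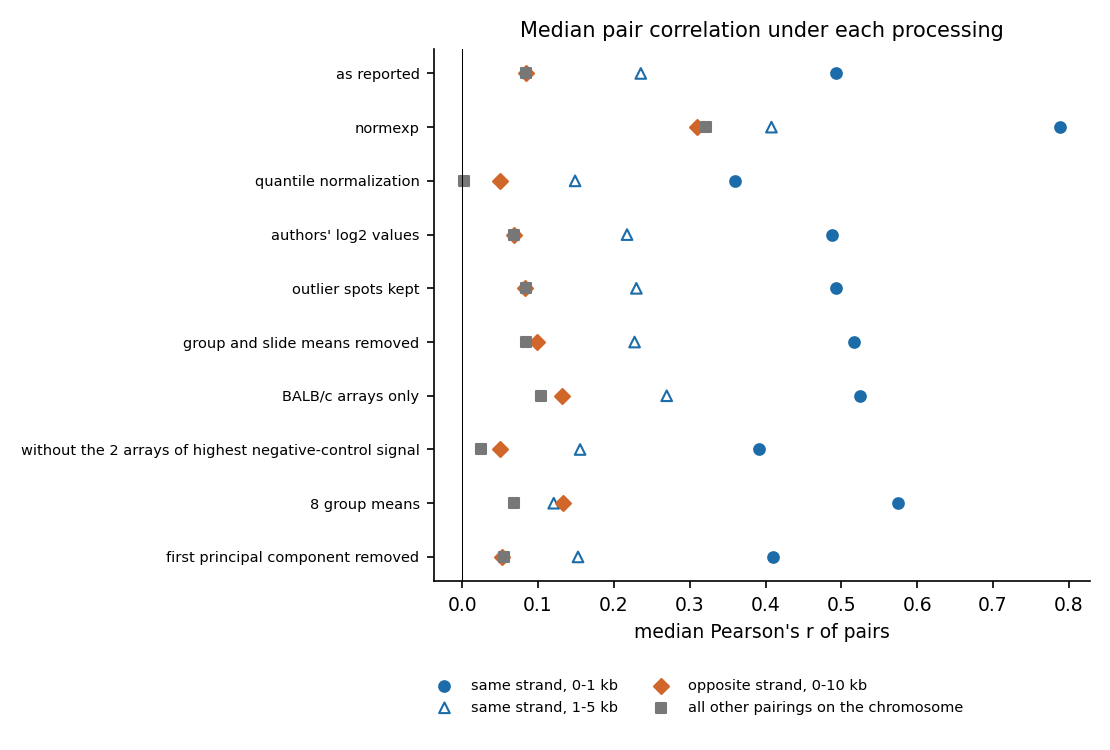
Median Pearson's r of pairs under each processing of the values (rows), for same-strand pairs within 1 kb and at 1 to 5 kb, opposite-strand pairs within 10 kb, and all other pairings on the chromosome. The same-strand median within 1 kb was the highest of the 4 under every setting, 0.360 with quantile normalization and 0.788 with normexp.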

How the data were processed

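The authors' deposited scanner files hold Agilent 1-colour intensity values, background-subtracted and detrended by Feature Extraction 10.10.1.1. The authors also deposited log2 values normalized to the 75th percentile, used as an alternative. Here the log2 intensity minus the array's 75th percentile was used, without control spots and 3777 outlier spots, for 55681 probes on 24 arrays. Coordinates are those of the files (mm9); RefSeq gave names and biotypes only, and 565 of 862 partner probes matched a gene. Residuals from group means gave r, tested by an exact two-sided permutation test over all orders of the arrays within groups. For each comparison its 6 arrays were fitted in limma (version 3.58.1, R 4.3.3), with the thresholds of the study's methods. Both scripts were tested on simulated data. Named pairs passed the adjusted p, were above background at both probes on at least 20 arrays, and were the 8 of highest r per strand and the 4 of lowest, 1 per gene symbol. Named probes were the pair of largest rises and of largest falls per comparison among those past the thresholds, above background on the brighter group's 3 arrays, with groups that did not overlap. Fewer opposite-strand and negative pairs met this rule. Members and lists were chosen with earlier results of these data known. Whether replicate letters pair samples is not known. The deviations of LDIR and sham arrays of 1 letter correlated positively for all 3 letters at 2 weeks only (0.167, 0.482 and 0.172 over 29395 probes). Over all probes these values were 0.013, 0.140 and -0.031. The 3 arrays a group limit precision. Pairs on 1 chromosome, and 1 other named pair, are not reported here.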

Additional observations from a re-analysis of the deposited data

How the results depend on the processing

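The direction of the named pairs and named probes was kept under all alternatives run, and of 495 recomputed pair correlations 80 lost the adjusted p of 0.05, as did 48 of 300 differences their thresholds. The count of 259 passing pairs was 1173 with normexp, where 36.3% of all lincRNA probes passed, 136 in BALB/c arrays only, 163 without the 2 arrays of highest negative-control signal, and 163 with the partner within 1 kb. It was 104 with 1 probe per interval, an alternative chosen after seeing the data, as was leaving out overlapping probes. It ranged from 192 to 246 when leaving out 1 array. The median r of 0.240 was 0.488 with normexp, 0.143 with quantile normalization, 0.153 without those 2 arrays and 0.418 within 1 kb, and 0.165 to 0.253 leaving out 1 array. The strain count of 272 was 137 with the methods' t-test (5.08%, beside 4.94% of all probes), 90 with slide as a block and 191 to 220 leaving out 1 array. Pairs with both probes past the thresholds were 47 of 83 within 1 kb, and 46 to 65 leaving out 1 array. For LDIR in BALB/c, normexp gave 5, 9 and 3 probes at 2, 4 and 8 weeks. At 2 weeks the count was 86 with quantile normalization, 65 with probes above background, 69 with the t-test, 48 with all 24 arrays in 1 fit, 48 with slide as a block, and 121 to 155 leaving out 1 array. At 4 weeks it was 90 with probes above background, 71 with the t-test, 39 with slide as a block, and 108 to 382 leaving out 1 array, 382 being without BALB/c sham C. At 8 weeks it was 35 with probes above background, 46 with the t-test, 183 with all 24 arrays, and 39 to 126 leaving out 1 array: 39 without LDIR C, 125 without LDIR A, 126 without sham B and 118 without sham C. In SPRET/EiJ it was 2 with normexp, 22 with probes above background, and 67 to 151 leaving out 1 array, 132 without LDIR A and 151 without LDIR B. Pairs with both probes past the thresholds within 1 kb were 0 at 2 weeks, 8 of 10 at 4 weeks and 1 in SPRET/EiJ, and 0 at 8 weeks without overlapping probes. The cause of these shifts was not tested.

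With the replicate letter as a block, 150, 165 and 95 lincRNA probes passed at 2, 4 and 8 weeks, 89 in SPRET/EiJ and 196 for strain. The median r was 0.244, and no count moved by over 1.5 times.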
